A study of Mus musculus with 7 samples.

Results

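The genes described here are 32 genes of protein folding in the endoplasmic reticulum (ER) and of the unfolded protein response. They were taken by symbol from a list, and all 32 were found among the 55487 genes of a deposited count table. The table comes from RNA sequencing of brown fat, which burns lipid to make heat, in 7 mice of NOD/ShiLtJ, an inbred line prone to autoimmune diabetes. The CB-100 group (4 mice) got CB-100 under the skin at 1.5 mg per kg of body weight for 7 days, at a blood glucose level between 190 and 230 mg/dL. The labels describe CB-100 as material above 100 kDa from a buffer that brown adipocytes (imBAT) had conditioned. The sham group (3 mice) was given KRBH buffer, and its labels repeat the glucose range and protocol of CB-100 with no schedule of their own. The fat was collected between 2 and 8 weeks after injection, and neither the week nor an age is stated for single mice. The sample titles carry the code nd on every CB-100 sample and d on every sham sample, a code left unexplained that cannot be told apart from the injection.

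The ER is where secreted and membrane proteins enter through the Sec61 channel, fold with the help of chaperones and form disulfide bonds. Proteins that fail to fold are passed back to the cytosol and destroyed, a route called ER-associated degradation (ERAD). When unfolded proteins build up, the membrane sensors IRE1 (gene Ern1), PERK (Eif2ak3) and ATF6 start the unfolded protein response, which raises chaperone and ERAD genes and slows protein synthesis. IRE1 splices the Xbp1 transcript, and the product is a transcription factor. Brown fat secretes proteins and makes large amounts of lipid on ER membranes, and the IRE1 branch is known to bear on thermogenic gene expression.

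Library totals ran from 10815101 to 28528471 counts. Xist and Y-linked counts showed 5 females and 2 males, the males being CB-100 replicate 3 and sham replicate 3. Genes of the mitochondrial genome took 22.3% to 36.3% of the counts in CB-100 and 14.3% to 22.8% in sham, and the small RNAs 7SL and 7SK took 9.54% to 14.4% and 5.89% to 8.35%. The summed level of 10 brown adipocyte markers was 3779 to 7947 CPM (the usual depth-scaled counts, here with library totals scaled by TMM) in CB-100 and 4505 to 7546 in sham. Ucp1, the uncoupling protein that defines the tissue, was at 450 to 2237 CPM in CB-100 and 46.1 to 875 CPM in sham, so the groups overlapped. Of the 10, Adipoq was apart and lower in CB-100 (361 to 375 CPM, against 484 to 808 in sham). Dio2 was apart and higher (43.6 to 377 CPM, against 1.03 to 27.8), and the rest overlapped. Among markers of other cells, summed levels were apart between the groups for 7 fibroblast genes (910 to 1890 CPM in CB-100, 379 to 866 in sham), for 6 Schwann cell genes (128 to 157, against 69.5 to 82.1) and for 11 plasma and B cell genes (18.3 to 30.3, against 12.7 to 16.8). Within the fibroblast list the 3 collagen genes carried the sum (803 to 1756 CPM, against 240 to 676), and the other 4 summed were apart and lower in CB-100 (107 to 137 CPM, against 139 to 191). Without Ighm the plasma and B cell sums overlapped (9.87 to 22.1 CPM, against 9.59 to 11.5). Single genes of these lists passed the test only among the Schwann cell markers (S100b and Pmp22, both higher). The sums overlapped for 8 skeletal muscle genes (229 to 1699, against 659 to 1495) and for T cell, macrophage and endothelial markers. In bulk tissue, fewer cells of a type and less RNA per cell cannot be told apart. Of 16823 genes tested with edgeR's quasi-likelihood test, 622 (3.70%) had a Benjamini-Hochberg adjusted p under 0.05, 1.42% higher and 2.28% lower in CB-100.

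Many genes of this response carry the ER stress response element (ERSE) near their start, where NF-Y binds the first box and activated ATF6 or spliced XBP1 the second. Promoters of 27 of the 32 genes were found in RefSeq sequence (GRCm38.p6), and those of Atf6, Derl1, Hyou1, Manf and Ppp1r15b were not analysed here. The letters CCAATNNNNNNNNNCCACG were searched on both strands of the 250 bases before the transcript start. They occurred in 9 of the 27, against 35 of the 27025 genes with a RefSeq promoter sequence (0.13%). The matches are shown as a description of these genes. The list was not chosen by promoter sequence, but genes of this response are known for the element, so its share is not independent of the list. Distances are from the RefSeq start, which can differ from that of GENCODE. Each is printed in the direction of the element, 5′ to 3′, with its 2 boxes in capitals.
Hspa5 (chr2:34772025-34772043, plus strand, 47 bases before the start): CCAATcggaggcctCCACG
Hsp90b1 (chr10:86705638-86705656, minus strand, 194 bases before the start): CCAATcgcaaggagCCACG
Hsp90b1 (chr10:86705533-86705551, plus strand, 89 bases before the start): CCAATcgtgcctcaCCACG
Calr (chr8:84847075-84847093, plus strand, 144 bases before the start): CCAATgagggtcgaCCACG
Canx (chr11:50325800-50325818, minus strand, 127 bases before the start): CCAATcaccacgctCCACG
Pdia6 (chr12:17266491-17266509, plus strand, 80 bases before the start): CCAATgaaaggcggCCACG
Dnajc3 (chr14:118937827-118937845, plus strand, 87 bases before the start): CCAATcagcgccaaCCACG
Creld2 (chr15:88819520-88819538, minus strand, 108 bases before the start): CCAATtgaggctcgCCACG
Syvn1 (chr19:6046532-6046550, plus strand, 26 bases before the start): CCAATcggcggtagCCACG
Derl3 (chr10:75893242-75893260, minus strand, 138 bases before the start): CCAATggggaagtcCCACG
The related element ERSE-II, searched as ATTGG, any 1 base and CCACG, was held by 10 of the 27025 genes, and by Herpud1 alone of the 27. The UPR element TGACGTGG was held by 163 genes (0.603%) and by none of the 27. The second box alone, CCACG, occurs within each ERSE and was held by 18 of the 27 and by 31.0% of the 27025. The first box alone, CCAAT, was held by 21 of the 27 and by 37.5%.
Herpud1 (chr8:94386377-94386387, plus strand, 42 bases before the start): ATTGGgCCACG
A match of letters is a description and not a measured binding site.

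**Figure D1:**
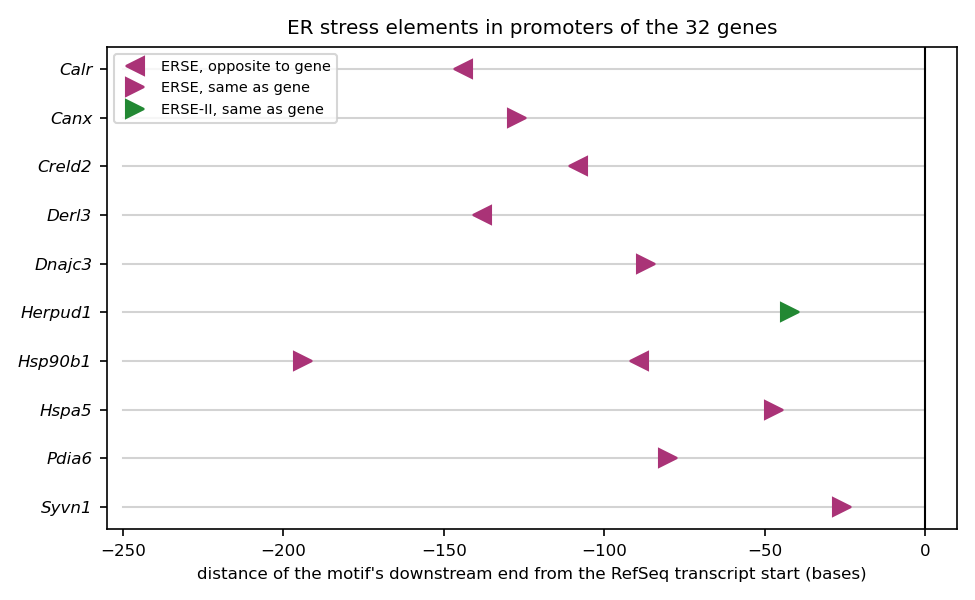
Position of each ERSE and ERSE-II match in the 250 bases before the RefSeq transcript start (x axis, bases, with the start at 0) for the 10 genes that hold one (y axis). Arrows give the direction of the element relative to the gene. Hsp90b1 holds 2 matches, and the nearest to a start lies 26 bases before that of Syvn1.

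Of the 32 genes, all passed the filter on low counts, 1 was higher in CB-100 (Sdf2l1), 0 were lower and 31 did not pass. With 3.12% of the list called, against 3.70% of all genes, the share lay near the background. At an unadjusted p under 0.05, 4 were higher (Sdf2l1, Edem1, Syvn1 and Creld2) and 3 lower (Edem3, Herpud1 and Pdia4). That was 21.9% of the list, beside 23.9% of all genes at the same limit (11.7% higher and 12.2% lower), so this share too lay near the background. The median log2 change was 0.02, beside 0.03 over all genes tested, with 17 estimates above 0 and 15 below. Only Sdf2l1 had an estimate of at least 1 in size, and 25 of the 32 lay within 0.5 of 0. The standard errors ran from 0.13 to 0.47, with a median of 0.19. In 8 of the 32 (25%) the 4 CB-100 libraries did not overlap the 3 sham libraries, beside 23.3% of all genes. Of these 8, 6 were higher (11.1% of all genes) and 2 lower (12.2% of all genes) in CB-100.

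**Figure D2:**
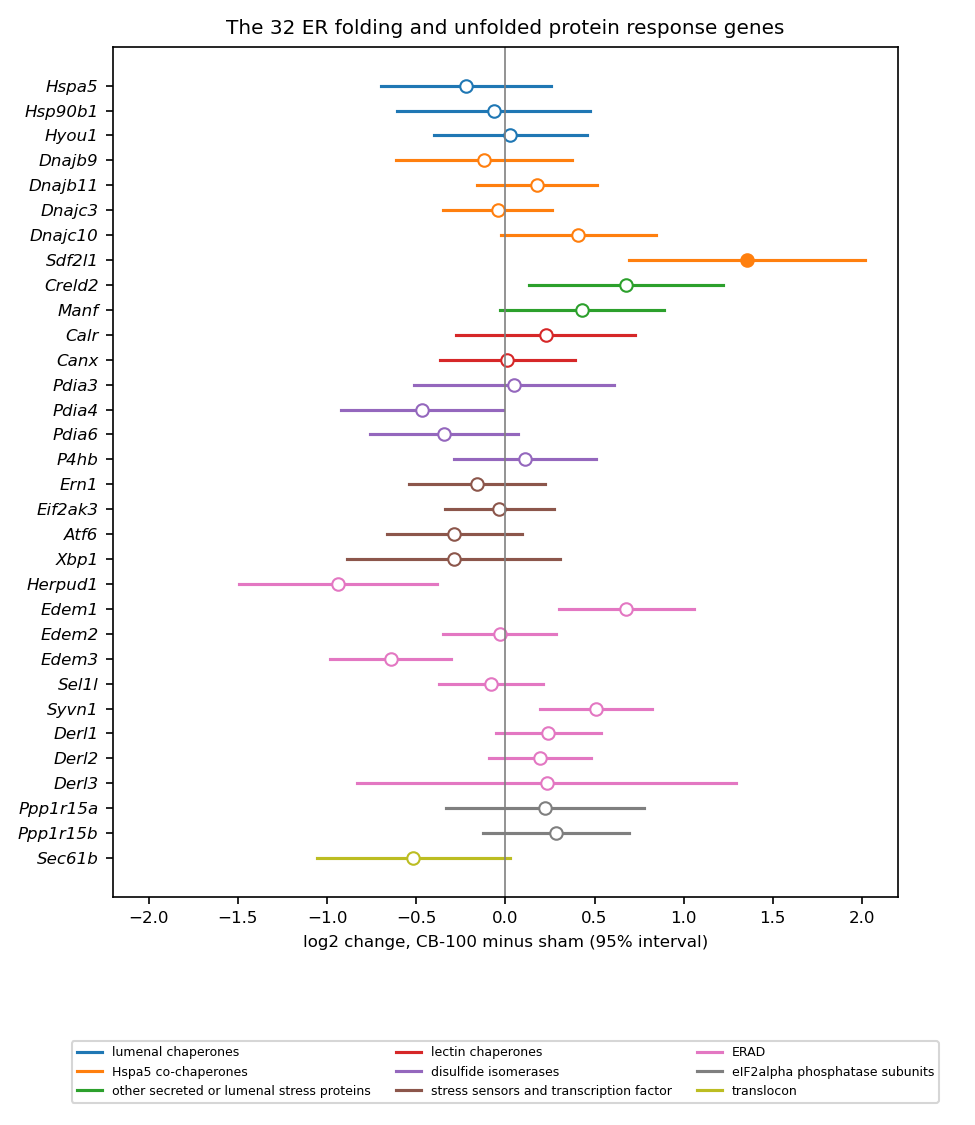
Log2 change of each of the 32 genes (x axis, CB-100 minus sham, point) with its 95% interval (line), ordered and coloured by role. The filled point, Sdf2l1, is the 1 gene past the threshold, and the ERAD genes spread from -0.94 (Herpud1) to 0.68 (Edem1).

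The large chaperones of the ER lumen were abundant in both groups and did not pass the test. Per kilobase of exon, Calr had the highest level of the 32 in both groups, 62.4 CPM per kb in CB-100 and 53.4 in sham. In sham it was followed by Herpud1 (50.9 CPM per kb), Hspa5 (41.9) and Hsp90b1 (40.6). In CB-100 Herpud1 stood seventh of the 32 by this measure, at 26.5 CPM per kb. Sdf2l1 (2.11 CPM per kb in CB-100, 0.82 in sham) and Derl3 (0.50 and 0.42) were the lowest in both groups.

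Hspa5 encodes BiP, the main lumenal Hsp70 chaperone, which also holds the sensors inactive. Hspa5 lies at chr2:34771970-34777547 on the plus strand of GRCm38 in the GENCODE annotation, which begins 120 bases before the RefSeq start (34772090) from which its ERSE was measured. By the GENCODE start, the ERSE (34772025-34772043) lies inside the gene and not before it. Its level was 151, 127, 124 and 205 CPM in CB-100 replicates 1 to 4 and 173, 205 and 154 CPM in sham replicates 1 to 3. The groups overlapped, with CB-100 replicate 4 beside the highest sham library and the other 3 CB-100 libraries below all sham libraries. The log2 change was -0.22 (SE 0.21, 95% interval -0.70 to 0.25, edgeR adjusted p = 0.55). Hsp90b1, the lumenal Hsp90 (GRP94), was at 143, 138, 112 and 232 CPM in CB-100 and 158, 160 and 173 CPM in sham. Here CB-100 spanned the narrow sham range on both sides (edgeR log2 change -0.07 with SE 0.24, adjusted p = 0.89). Hyou1, a large Hsp70 relative that exchanges nucleotide on BiP, had means of 126 ± 17.7 (SD, n = 4) and 124 ± 27.6 CPM (SD, n = 3).

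Calr and Canx, the lectin chaperones calreticulin and calnexin that hold glycoproteins while they fold, also overlapped between the groups. Mean Calr was 180 ± 40.9 CPM (SD, n = 4) with CB-100, and with sham 154 ± 27.7 CPM (SD, n = 3). For Canx the means were 175 ± 27.5 and 174 ± 12.5 CPM. The edgeR log2 changes were 0.23 (SE 0.22, adjusted p = 0.57) for Calr and 0.01 (SE 0.17, adjusted p = 0.97) for Canx. Of the disulfide isomerases, which form and reshuffle disulfide bonds, 2 had estimates above 0 and 2 below. Pdia3, which works with the lectin chaperones, was at 76.9 ± 28.0 against 74.3 ± 6.22 CPM, and P4hb, the founding isomerase, at 69.4 ± 14.3 against 64.4 ± 4.35 CPM. Pdia4 had the lowest estimate of the 4 (edgeR log2 change -0.47 with SE 0.20, adjusted p = 0.20) and Pdia6 gave -0.35 (SE 0.18, edgeR adjusted p = 0.29).

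**Figure D3:**
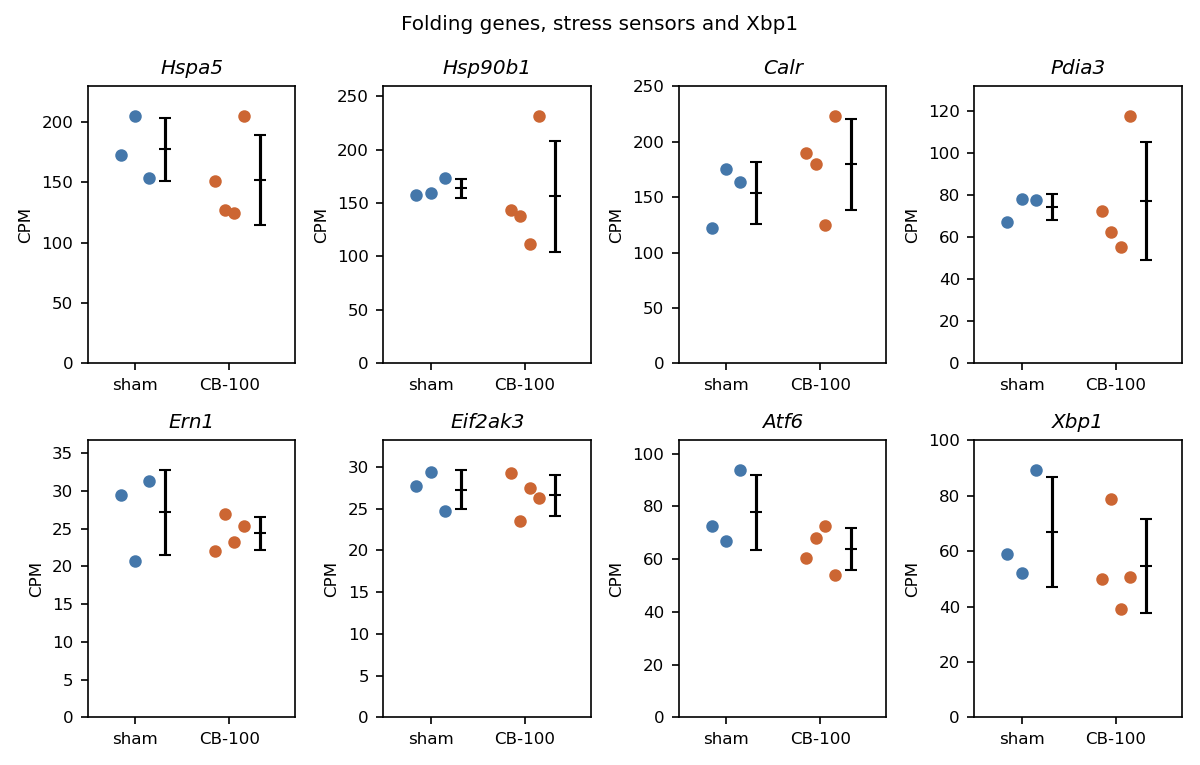
TMM-scaled CPM (y axis) in each library (points) for 4 abundant folding genes, the 3 stress sensors and Xbp1, with the mean and SD of each group (bars, n = 3 sham and 4 CB-100). In all 8 genes the groups overlap, and for Hsp90b1 (232 CPM), Calr (223 CPM) and Pdia3 (118 CPM) CB-100 replicate 4 lies above every other library.

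The folding genes varied together among the 4 CB-100 mice. Of the 16 genes with a folding role (chaperones, their co-chaperones, Creld2, Manf and the isomerases), 13 had their highest CB-100 level in replicate 4 and 14 had their lowest in replicate 3. Over all genes tested, replicate 4 was the highest of the 4 libraries for 31.3% and replicate 3 the lowest for 20.7%. Among the other 16 members, replicate 4 was the highest for 2 and replicate 3 the lowest for 4. The counts of 13 and 14 were the same with DESeq2 size factors and with upper quartile scaling. This count was made after the values were seen, and only for the CB-100 libraries. Among the sham libraries, replicate 1 was the lowest for most folding genes, though not for Hspa5, Dnajb9, Dnajc3 and Creld2. The highest sham library differed among them, with replicate 2 for Hspa5 and replicate 3 for Hsp90b1. The share of all genes lowest in sham replicate 1 was not counted. Whether a shared order is particular to CB-100 was therefore not tested. Replicate 4 was the deepest library and had the largest mitochondrial share (36.3%), and replicate 3 was the male of the group and had the highest muscle marker sum (1699 CPM), and their part in this order was not tested. The SD of Hsp90b1, whose count is uncertain, was 52.1 CPM among CB-100 mice and 8.50 CPM among sham mice, with CB-100 replicate 4 far above the others. Hyou1 (17.7 CPM in CB-100, 27.6 in sham) and Pdia4 (6.95 and 9.36) had the wider SD in sham. The other folding genes had it in CB-100, but the same split was not counted over all genes.

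Sdf2l1, a lumenal component of BiP complexes that keeps its DnaJ partners and clients soluble, was the gene of the 32 that rose. It lies at chr16:17130138-17132383 on the minus strand of GRCm38, with no overlapping gene. CB-100 replicates 1 to 4 held 33, 24, 27 and 61 counts of it, and sham replicates 1 to 3 held 16, 14 and 20. Scaled for depth, these were 2.36, 2.19, 1.94 and 2.84 CPM in CB-100 and 0.83, 0.96 and 0.94 CPM in sham. The lowest CB-100 library was above the highest sham library. Sdf2l1 was 2.56-fold higher in CB-100 (edgeR log2 change 1.36 with SE 0.29, 95% interval 0.69 to 2.02, adjusted p = 0.043). Set against Hspa5 in the same library, which removes the scaling, there were 1.39 to 1.72 Sdf2l1 counts per 100 Hspa5 counts in CB-100 and 0.47 to 0.61 in sham. The estimate of Hspa5 itself was below 0 (edgeR log2 change -0.22), which widens the contrast in this ratio. The Schwann cell sum, the fibroblast sum through its collagen genes, the plasma and B cell sum through Ighm, and the share of 7SL and 7SK were also apart and higher in CB-100, and their part in the difference was not tested.

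The call on Sdf2l1 was lost with any library left out and without the filter. Its estimate stayed between 1.24 and 1.44 with any 1 library left out, but the edgeR adjusted p was then 0.065 to 0.16. It was 0.065 without a filter on low counts, 0.22 in the 5 females alone (log2 change 1.45), 0.070 with sex as covariate and 0.21 with a skeletal muscle score as covariate. The 250 bases before its start are shown because it is the gene that passed. Capitals mark CCAAT and CCACG on either strand, which there reads ATTGG and CGTGG.
Sdf2l1 (chr16:17132384-17132633, minus strand): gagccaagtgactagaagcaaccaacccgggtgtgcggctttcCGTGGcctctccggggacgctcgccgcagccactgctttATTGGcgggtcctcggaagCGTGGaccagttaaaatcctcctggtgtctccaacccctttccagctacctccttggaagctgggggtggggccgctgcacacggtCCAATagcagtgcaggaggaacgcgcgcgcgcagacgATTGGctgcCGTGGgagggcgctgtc
These bases hold 3 copies of CCACG, all on the strand opposite to the gene, and no full ERSE, ERSE-II or UPR element as spelled above.

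The 4 J-domain proteins that work with BiP did not pass. Dnajc10, a reductase that opens disulfide bonds in proteins bound for degradation, was at 28.5, 34.6, 26.2 and 44.6 CPM in CB-100 and 23.4, 25.4 and 26.8 CPM in sham (edgeR log2 change 0.41 with SE 0.19, adjusted p = 0.24). Its lowest CB-100 library lay within the sham range and the other 3 above it. Dnajb11, which brings unfolded substrates to BiP, averaged 21.6 ± 3.07 against 19.1 ± 0.42 CPM. Dnajb9, which recruits BiP to IRE1 and represses it, was at 20.5 ± 5.40 against 22.4 ± 3.32 CPM. Dnajc3, the co-chaperone p58IPK that is also known to inhibit eIF2α kinases, was at 51.1, 49.9, 54.9 and 64.6 CPM in CB-100 and 55.7, 60.3 and 54.6 CPM in sham. In these 3 genes the groups overlapped, with log2 changes of 0.18 (SE 0.15) for Dnajb11, -0.12 (SE 0.22) for Dnajb9 and -0.04 (SE 0.14) for Dnajc3.

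Creld2 and Manf, small stress-inducible proteins that are partly secreted, had estimates above 0. Creld2 was at 7.37, 4.75, 4.60 and 6.74 CPM in CB-100 and 3.80, 3.57 and 3.67 CPM in sham. All 4 CB-100 libraries were above the sham range, with replicates 1 and 4 well above replicates 2 and 3 (edgeR log2 change 0.68 with SE 0.24, adjusted p = 0.13). Manf was at 17.2, 12.1, 10.1 and 15.7 CPM in CB-100 and 10.2, 10.2 and 10.4 CPM in sham, so that replicate 3 lay beside the sham values (edgeR log2 change 0.43 with SE 0.20, adjusted p = 0.24). In both genes replicates 1 and 4 were the high libraries.

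The sensors and Xbp1 all had estimates below 0, and none of the 4 passed. Ern1, which encodes IRE1α, was at 22.0, 26.9, 23.2 and 25.4 CPM in CB-100 and 29.5, 20.7 and 31.3 CPM in sham (edgeR log2 change -0.16 with SE 0.17, adjusted p = 0.60). The sham libraries surrounded the CB-100 libraries. Eif2ak3, which encodes PERK, was at 29.3, 23.5, 27.5 and 26.2 CPM in CB-100 and 27.8, 29.4 and 24.7 CPM in sham (edgeR log2 change -0.03 with SE 0.13, 95% interval -0.34 to 0.27, adjusted p = 0.90). Atf6, a membrane-bound transcription factor freed by cleavage in the Golgi, was at 60.6, 67.9, 72.7 and 54.2 CPM in CB-100 and 72.7, 66.7 and 93.9 CPM in sham (edgeR log2 change -0.29 with SE 0.17, adjusted p = 0.33). Sham replicate 2 lay within the CB-100 range, and sham replicate 3 well above all other libraries. Xbp1 was at 50.1, 78.8, 39.2 and 50.8 CPM in CB-100 and 59.1, 51.9 and 89.4 CPM in sham (edgeR log2 change -0.29 with SE 0.26, adjusted p = 0.53). Its highest and lowest values of the 7 were sham replicate 3 and CB-100 replicate 3, the 2 males, and in the 5 females alone the estimate was 0.10. The table counts whole genes, so the spliced form of Xbp1, the cleavage of ATF6 and the phosphorylation of PERK are not measured by it.

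None of the 9 ERAD genes passed. Of the 9, 4 were apart and higher in CB-100 (Edem1, Syvn1, Derl1 and Derl2), 2 were apart and lower (Edem3 and Herpud1), and 3 overlapped, where 11.1% of all genes were apart and higher and 12.2% apart and lower. Edem1, Edem2 and Edem3 are related mannosidase-like proteins that trim glycans on misfolded proteins and hand them to the degradation machinery. Edem1 (chr6:108828641-108859356, plus strand, GRCm38) was at 78.8, 81.1, 85.1 and 60.0 CPM in CB-100 and 40.2, 51.4 and 51.3 CPM in sham. CB-100 replicate 4 was the nearest to sham, and the log2 change was 0.68 (SE 0.17, 95% interval 0.30 to 1.06, edgeR adjusted p = 0.057). Edem3 (chr1:151755371-151822051, plus strand) was at 44.2, 41.7, 42.3 and 44.7 CPM in CB-100 and 71.6, 53.0 and 77.8 CPM in sham. The 4 CB-100 libraries were close together and below all sham libraries (edgeR log2 change -0.64 with SE 0.15, 95% interval -0.98 to -0.30, adjusted p = 0.051). Edem2 gave -0.03 (SE 0.14, edgeR adjusted p = 0.91).

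Herpud1, a short-lived ER membrane protein that organises the ERAD complex and the holder of ERSE-II above, had the lowest estimate of the 32. Herpud1 lies at chr8:94386438-94395377 on the plus strand of GRCm38. Its level was 84.3, 37.2, 61.0 and 65.0 CPM in CB-100 and 134, 103 and 119 CPM in sham. Every CB-100 library was below every sham library, with replicate 2 the lowest (edgeR log2 change -0.94 with SE 0.25, 95% interval -1.50 to -0.38, adjusted p = 0.065). Syvn1, the ubiquitin ligase HRD1 at the centre of the same complex (chr19:6046576-6053712, plus strand), was at 54.7, 66.2, 50.8 and 63.8 CPM in CB-100 and 39.3, 41.8 and 43.2 CPM in sham. Its groups were apart in the other direction (edgeR log2 change 0.51 with SE 0.14, adjusted p = 0.071). Exons of Mrpl49 lie on the opposite strand of Syvn1, whose count is uncertain for that reason, and Mrpl49 itself was at 20.7 ± 5.55 CPM (SD, n = 4) and 24.4 ± 4.59 CPM (SD, n = 3). Sel1l, the partner that stabilises HRD1, overlapped between the groups at 79.0 ± 5.84 and 83.4 ± 4.90 CPM (edgeR log2 change -0.08 with SE 0.13, adjusted p = 0.74).

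Derlins are membrane proteins of the channel through which ERAD substrates leave. Derl1 was at 100.0, 82.8, 96.5 and 94.4 CPM in CB-100 and 76.6, 82.8 and 77.9 CPM in sham, and CB-100 replicate 2 exceeded sham replicate 2 by less than 0.1 CPM. Derl2 was at 26.0, 25.8, 25.4 and 25.4 CPM in CB-100 and 23.7, 19.9 and 23.6 CPM in sham. The log2 changes were 0.24 (SE 0.13, edgeR adjusted p = 0.29) and 0.20 (SE 0.13, edgeR adjusted p = 0.37), so neither difference passed. Both counts are uncertain, as each holds non-whole values and exons of Mis12 lie opposite Derl2. Derl3, which is prominent in plasma cells and other professional secretory cells, stayed near 1 CPM at 1.00 ± 0.12 (SD, n = 4) and 0.83 ± 0.49 CPM (SD, n = 3). Of the plasma and B cell markers, 0 of the 5 that could be tested passed. Markers of exocrine glands, another secretory tissue, summed to 0.47 to 1.19 CPM in CB-100 and 0.28 to 0.52 CPM in sham, with Cpa1, Ctrb1 and Pnliprp1 at 0 in all libraries.

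**Figure D4:**
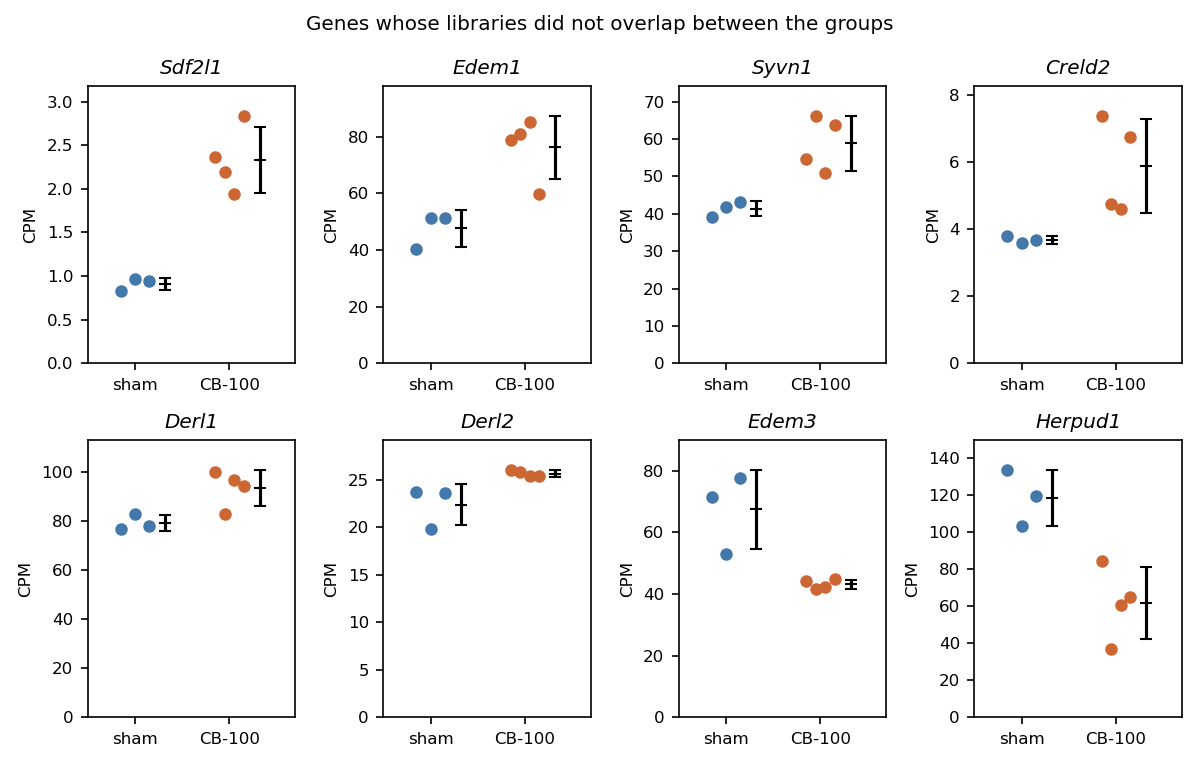
TMM-scaled CPM (y axis) in each library (points) for the 8 genes whose 2 groups did not overlap, with the mean and SD of each group (bars, n = 3 sham and 4 CB-100). Sdf2l1, Edem1, Syvn1, Creld2, Derl1 and Derl2 are higher in CB-100, and Edem3 and Herpud1 lower.

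Calls among these ERAD genes changed with the tool. With DESeq2 (11.7% of all genes called) Edem1, Syvn1 and Sdf2l1 were higher and Edem3 and Herpud1 lower, with adjusted p of 0.0085, 0.021, 0.0058, 0.0075 and 0.011. With limma voom (7.21% of all genes called) Edem1 and Sdf2l1 were higher and Edem3 and Herpud1 lower. In the 5 females alone the estimates were 0.67 for Edem1, 0.60 for Syvn1, -0.52 for Edem3 and -0.93 for Herpud1, with edgeR adjusted p of 0.25 to 0.30.

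Ppp1r15a (GADD34) and Ppp1r15b (CReP) are the stress-induced and the constitutive subunits that direct a phosphatase to eIF2α and restore translation. Ppp1r15a was at 12.8, 24.1, 13.1 and 19.3 CPM in CB-100 and 16.6, 15.8 and 12.2 CPM in sham (edgeR log2 change 0.22 with SE 0.25, adjusted p = 0.62). Ppp1r15b averaged 268 ± 34.8 against 220 ± 34.1 CPM (edgeR log2 change 0.28 with SE 0.18, adjusted p = 0.37), and per kilobase of exon it had the second highest level of the 32 in CB-100 (47.9 CPM per kb). Sec61b, a small subunit of the Sec61 channel, was at 7.94, 6.39, 7.84 and 11.8 CPM in CB-100 and 10.0, 15.0 and 11.6 CPM in sham. Only CB-100 replicate 4 reached the sham range (edgeR log2 change -0.52 with SE 0.24, adjusted p = 0.23).

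**Figure D5:**
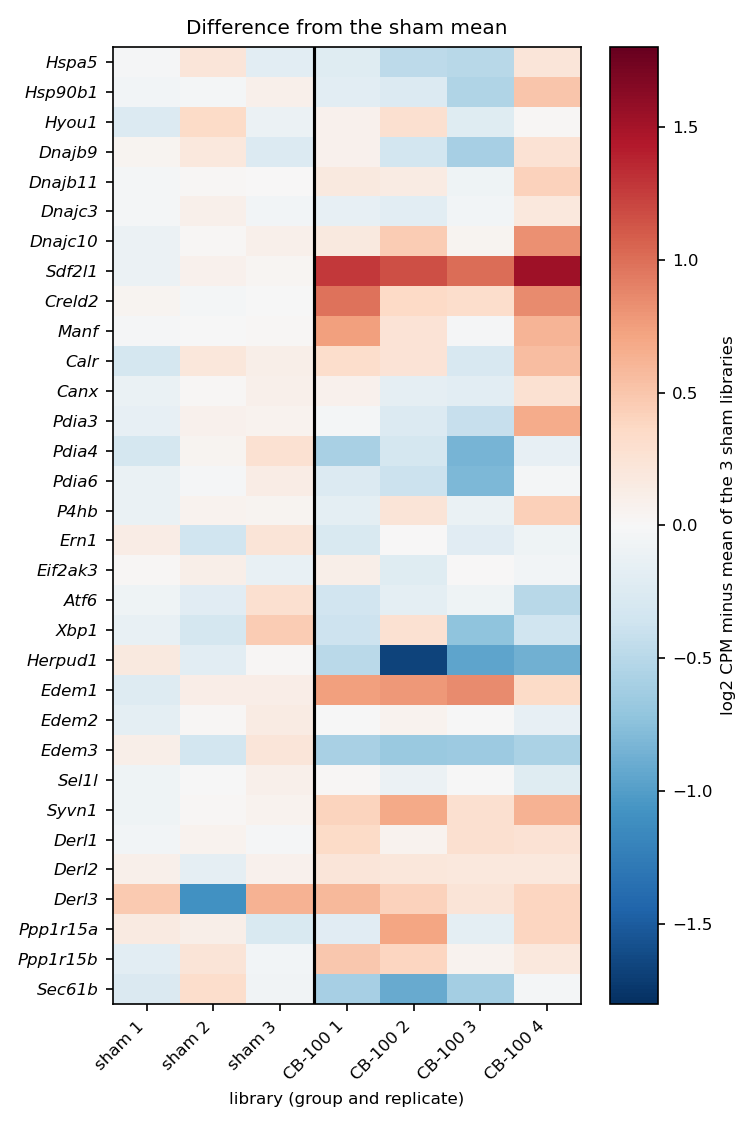
Log2 CPM of each of the 32 genes (rows) in each of the 7 libraries (columns) as the difference from the mean of the 3 sham libraries (colour). Red is higher and blue lower. The 16 upper rows, the folding genes, have their highest CB-100 value in replicate 4 for 13 of 16 and their lowest in replicate 3 for 14 of 16. Sdf2l1, Creld2, Dnajc10, Edem1, Syvn1, Derl1, Derl2, Derl3 and Ppp1r15b are above 0 in all 4 CB-100 libraries. Edem3, Herpud1, Pdia4, Pdia6, Atf6 and Sec61b are below 0 in all 4.

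Genes of the same pathways outside the 32 were described from 6 lists with 123 genes tested, of which 0 were higher and 2 lower. At an unadjusted p under 0.05 in edgeR, 8 were higher (6.5%) and 16 lower (13.0%), beside 11.7% and 12.2% of all genes. The ATF4 branch, which PERK switches on to raise amino acid synthesis and stress genes, had 1 of 20 genes lower, 0 higher, and a median log2 change of -0.23. The gene that passed was Shmt2, the mitochondrial serine hydroxymethyltransferase, which fell from 26.1 ± 3.92 (sham) to 15.3 ± 1.60 CPM (CB-100) (edgeR log2 change -0.77 with SE 0.16, adjusted p = 0.037). Exons of Ndufa4l2 lie opposite Shmt2. Of 19 other ERAD factors 1 was lower, Vcp, the ATPase that pulls substrates out of the membrane. Vcp fell from 80.4 ± 6.92 to 53.4 ± 4.01 CPM (edgeR log2 change -0.59 with SE 0.13, adjusted p = 0.045), with an uncertain count, since all 7 libraries give it a fractional value and exons of 1700022I11Rik lie opposite. The median of that list was -0.16, with 7 of the 19 apart and lower in CB-100 (12.2% of all genes) and 0 apart and higher. Of the 123, 0 were lower with sex or the muscle score as covariate and in the 5 females alone. Those fits called 1.41%, 0.006% and 0.00% of all genes. With 1 library left out 0 to 2 were lower, where 0.046% to 3.67% of all genes were called.

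In the other 4 lists none passed in either direction. The 23 genes of translocation and signal peptide cleavage had a median of -0.11, and the smallest p was that of Srp68 of the signal recognition particle (log2 change -0.59, edgeR adjusted p = 0.061), before Srp54a (-0.41, edgeR adjusted p = 0.11). The 18 genes of N-glycosylation and glycan trimming had a median of -0.07, with Lman1, a cargo receptor of ER exit, at -0.50 (edgeR adjusted p = 0.064) and Rpn2, of the oligosaccharyltransferase, at -0.36 (edgeR adjusted p = 0.19). The 24 other ER folding enzymes had a median of 0.11. There the smallest p were those of Serpinh1, the collagen chaperone HSP47 (edgeR log2 change 1.41 with SE 0.42, adjusted p = 0.093), and P3h1, a prolyl hydroxylase of collagen (0.67, SE 0.21, edgeR adjusted p = 0.096). Both were apart between the groups, as were the collagen genes Col1a1 (345 ± 153 against 100.5 ± 58.6 CPM) and Col3a1 (665 ± 258 against 182 ± 116 CPM) of the fibroblast list. Of the other 5 fibroblast markers, Dcn was apart and lower in CB-100 (64.2 ± 12.8 against 107 ± 11 CPM), and Col1a2, Lum, Pdgfra and Fbln1 overlapped, and the part of cell composition in the values of Serpinh1 and P3h1 was not tested. The 19 genes of ATF6 processing and ER exit had a median of -0.12, with Creb3l1, a membrane-bound relative of ATF6, at 1.28 (SE 0.33, edgeR adjusted p = 0.063) and Atf6b at 0.40 (edgeR adjusted p = 0.12).

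Estimates lay on both sides of 0 with and without the ERSE. The 9 genes with an ERSE had a median log2 change of 0.01, with 5 estimates above 0 and 4 below and a range of -0.35 (Pdia6) to 0.68 (Creld2). The 18 matched genes without an ERSE had a median of -0.03, with 8 above 0 and 10 below. Their range was -0.94 (Herpud1, which holds the related ERSE-II) to 1.36 (Sdf2l1). As a share of all counts the 32 genes held 0.18% to 0.21% in CB-100 and 0.22% to 0.25% in sham. With mitochondrial, 7SL and 7SK genes left out of the total, they held 0.28% to 0.34% in CB-100 and 0.31% to 0.32% in sham, and the groups overlapped.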

How the data were processed

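Reads of 7 brown fat RNA libraries were mapped by STAR 2.7.9a against Ensembl release 101, per the labels' protocols. Further tools in the submitters' processing notes, with no role stated, are featureCounts 2.0.3, Salmon 1.5.2, edgeR and limma. How reads were counted and whether strand was used is not stated there. Values are expected counts, unnormalized, in a gene table that the authors deposited. After 287 repeated lines were removed, 55487 genes were left. Of the 32 genes, 8 have non-whole counts and 11 share exon bases with another gene in GENCODE M21 (GRCm38), which gave positions and exon lengths, so 13 have uncertain counts: Derl1, Derl2, Dnajb9, Eif2ak3, Hsp90b1, Manf, Pdia3, Pdia4, Pdia6, Ppp1r15a, Ppp1r15b, Sec61b and Syvn1.

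Counts were rounded, filtered with filterByExpr, scaled by TMM (factors 0.755 to 1.25) and tested with edgeR 4.0.16 (robust quasi-likelihood, R 4.3.3) on group alone, with two-sided p adjusted by Benjamini-Hochberg over 16823 genes. The SE is the log2 change over the square root of F, and 95% intervals use the fit's t distribution without adjustment. CPM use the scaled totals of the filtered genes, and log2 CPM a prior count of 2. The common coefficient of variation between libraries of a group was 28.0%, so the number of libraries limits precision. The code was tested on simulated data. Only codes in the titles mark the samples as separate animals, so the p-values cover the spread among these 7 samples, which may be technical in part. DESeq2 1.42.0 and limma 3.58.1 were alternatives.

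All 32 genes are named. Values in every library are given for Hspa5, Xbp1, the sensors, the gene that passed and genes apart between groups. Library values of Hsp90b1, Dnajc3, Dnajc10, Manf, Ppp1r15a and Sec61b and the markers Ucp1, Adipoq, Dio2, Col1a1, Col3a1, Dcn and Ighm were added after seeing the data. Of other lists, up to 4 called genes or the 2 with the smallest p are named. The members and lists were chosen with earlier results of these data known, and ERSE-II and the split marker sums were added after seeing the data.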

Additional observations from a re-analysis of the deposited data

How the results depend on the processing

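Across 18 alternative fits the estimates of the 32 genes were recomputed 576 times, of which 517 kept their direction and side of the threshold, 14 gained a call, 11 lost one (all Sdf2l1) and 34 changed sign. The number of genes higher in CB-100 was 0 without a filter on low counts, with sex or a muscle score as covariate and in females only (in these 4 edgeR fits 6 to 8 of the 32, beside 14.9% to 22.3% of all genes, had an unadjusted p under 0.05), 2 with limma voom, and 3 with DESeq2 and at a threshold of 0.1, which 11.1% of all genes passed. The number lower was 2 without a filter, with DESeq2, with limma voom and at a threshold of 0.1, and 1 with at least 1 CPM in 3 libraries, with mitochondrial, 7SL and 7SK genes left out and with protein-coding genes only. Leaving out 1 library each gave 0 to 1 higher and 0 to 1 lower, against 1 and 0. Sdf2l1 lost its call without each of the 7 libraries, while Edem1 passed without CB-100 replicate 4 (edgeR adjusted p = 0.033) and Edem3 without sham replicate 2 (edgeR adjusted p = 0.040).

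The median log2 change ranged from -0.04 (without sham replicate 1) to 0.11 (females only), and from -0.04 to 0.09 with 1 library left out. Over all genes 622 calls became 1968 with DESeq2, 1213 with limma voom, 238 with sex as covariate, 1 with the muscle score, 0 in females only and 8 to 610 with 1 library left out. Of the pathway genes outside the list, 3 were higher and 6 lower with DESeq2, 1 higher with limma voom and without a filter, and 0 lower with either covariate and in females only, and 0 to 1 higher and 0 to 2 lower with 1 library left out.

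Estimates changed sign in 11 genes, whose reported log2 changes ran from -0.29 (Xbp1) to 0.23 (Derl3), and none came with an edgeR adjusted p under 0.39. With upper quartile scaling log2 changes became Eif2ak3 0.0006 and Edem2 0.0072. Without a filter log2 changes became Hyou1 -0.0015 and Canx -0.018. With limma voom log2 changes became Hyou1 -0.017, Canx -0.10, Pdia3 -0.22 and P4hb -0.0083. Without mitochondrial, 7SL and 7SK genes log2 changes became Canx -0.0035. In females only log2 changes became Hsp90b1 0.10, Xbp1 0.10 and Edem2 0.035. With the muscle score log2 changes became Hyou1 -0.046, Canx -0.07, Pdia3 -0.14, Edem2 0.0082 and Derl3 -0.0081. With 1 library left out the log2 changes spanned 0, at Canx -0.089 to 0.074, Hyou1 -0.10 to 0.22, Dnajc3 -0.13 to 0.0024, Eif2ak3 -0.11 to 0.022, Hsp90b1 -0.32 to 0.064, Dnajb9 -0.27 to 0.012, Pdia3 -0.23 to 0.18, P4hb -0.015 to 0.20, Edem2 -0.12 to 0.038 and Derl3 -0.15 to 0.55.

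No paired analysis was possible because the titles carry animal codes that the groups do not share. No library of the 4 in CB-100 stood apart from the others in any of the 32 genes by Dixon's gap, and the 3 sham libraries are too few for that check. With 4 values only a very wide gap is flagged, so the check has little power. CB-100 replicate 4 still lay above every other library for Hsp90b1, Calr and Pdia3. The cause of these differences between fits was not tested. Depth limits Sdf2l1 and Derl3, which have few reads in each library.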
